A study of Homo sapiens with 4 samples.

Results

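The genes described here are 38 genes of fatty acid synthesis, desaturation, elongation, activation, storage and oxidation, chosen by name and found, 38 of 38, among the 58233 genes of the count table. RNA-seq was done on 4 libraries of MCF10AT, human breast epithelial cells that descend from MCF10A and carry an activated HRAS. Of these, 2 are labelled Bromo+/- and 2 non-target control. The control columns of the count table are headed WT, a name the labels do not use, and were taken as the non-target controls because the other columns begin with Br. The medium held horse serum, cholera toxin, EGF, hydrocortisone and insulin, and the labels' protocols describe lentiviral shRNA delivery with puromycin selection. The labels do not spell out Bromo+/- further, and libraries of EP300 shRNAs, which the series' design text speaks of, are not analysed here. Within a group the column names share a number whose meaning is not given, and no label says that the libraries of a group came from separate cultures or clones, so the spread behind every p-value is that between these libraries and may be technical.

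Fatty acids are built in the cytosol from acetyl-CoA, which ACLY makes from citrate and ACSS2 from acetate. ACACA carboxylates it to malonyl-CoA, and FASN joins the units into palmitate, which ELOVL enzymes lengthen and SCD and FADS enzymes desaturate in the endoplasmic reticulum. ACSL enzymes couple free fatty acids to CoA. The products then enter glycerolipids and lipid droplets, or pass through the carnitine shuttle (CPT1A, CPT2) into mitochondria for beta-oxidation. Many of the synthetic genes are known targets of SREBP-1, and many oxidation genes of PPAR nuclear receptors. Mammary epithelium is known for high lipid synthesis in lactation.

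Libraries held 10835237 to 11975396 counts. EP300, the gene the series is named for, was not lower in the Bromo+/- libraries, with 124 ± 3.73 against 109 ± 3.16 scaled CPM (counts relative to the TMM-scaled library size; mean ± SD, n = 2 per group). It was called slightly higher (log2 fold change 0.19, SE 0.06, adjusted p = 0.00701, edgeR), a call lost with DESeq2's Wald test (adjusted p = 0.0639) and when control replicate 1 was left out (adjusted p = 0.162, edgeR). The mammary epithelial and mesenchymal marker lists moved with the groups. Over all tested genes 27.1% were called lower and 26.4% higher at an adjusted p of 0.05 (edgeR). All 10 mammary epithelial markers were lower past the threshold, with a summed level of 1378 and 1474 scaled CPM in the Bromo+/- libraries and 10812 and 11254 in the controls, and CDH1, which encodes E-cadherin, had 32 and 28 counts against 4244 and 4814 in the controls. All 8 mesenchymal markers were higher, with a sum of 5929 and 6097 against 1813 and 1929 scaled CPM. The part of this difference in the results below was not tested. In bulk RNA, fewer cells of a type and less RNA per cell cannot be told apart.

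Most of the fatty acid genes that changed were lower. Of the 38 genes, 33 had enough counts to be tested in edgeR's quasi-likelihood fit over all 13179 tested genes. At an adjusted p of 0.05, 15 of the 33 were lower in the Bromo+/- libraries and 8 were higher, while 10 did not pass. Over all tested genes 53.5% were called, 27.1% lower and 26.4% higher, so a call in itself is common in this comparison. Changes of at least 2-fold were called for 5 of the 33 (3 lower, 2 higher), against 15.0% of all genes (7.53% lower, 7.44% higher). The median log2 fold change (Bromo+/- over control) of the 33 was -0.13, against 0.01 over all tested genes. The summed level of all 38 was 4614 and 4566 scaled CPM in the Bromo+/- libraries and 6093 and 6202 in the controls. The plot of fold changes by role shows that the calls were unevenly placed: synthesis was lower throughout, elongation nearly so, and desaturation, storage and oxidation split.

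**Figure D1:**
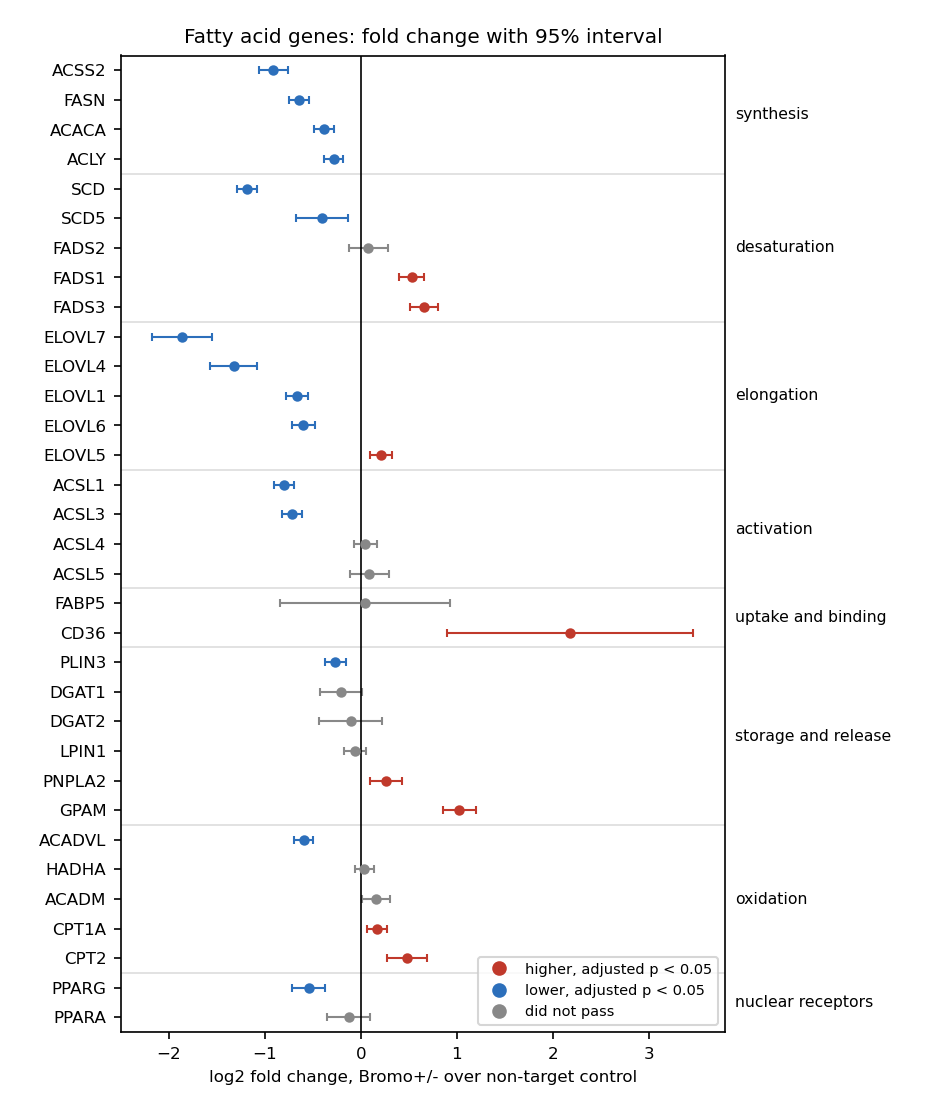
Log2 fold change of each of the 33 tested genes, Bromo+/- libraries over non-target control (x axis), grouped by role on the y axis. Points are fitted values and bars 95% intervals from the fitted model. The 4 synthesis genes lie below 0, and CD36 has the widest interval, from 0.90 to 3.46.

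All 4 tested synthesis genes fell. The levels of FASN, the fatty acid synthase (chromosome 17, 82078333 to 82098332, GRCh38), were 535 and 488 scaled CPM in the Bromo+/- libraries and 759 and 838 in the controls, so the groups did not overlap. FASN thus fell 1.56-fold (log2 fold change -0.64, SE 0.05, adjusted p = 6.17e-26). ACSS2, the cytosolic acetyl-CoA synthetase, had the largest fall of the role, from 81.1 and 77.4 scaled CPM in the controls to 39.9 and 44.5 (log2 fold change -0.91, SE 0.08, adjusted p = 1.61e-25). ACACA, acetyl-CoA carboxylase 1, stood at 195 and 203 against 250.045 and 270.4 scaled CPM (log2 fold change -0.39, SE 0.05). The smallest change was in ACLY, the ATP citrate lyase, at 471 and 476 against 575 and 575 scaled CPM (log2 fold change -0.28, SE 0.05, adjusted p = 3.67e-07). Thus the 2 sources of cytosolic acetyl-CoA differed in the size of their change, 1.88-fold lower for ACSS2 and 1.21-fold lower for ACLY, a difference between genes that was not itself tested. ACACB, the carboxylase isoform at the mitochondrial surface, had 10 counts in the Bromo+/- libraries and 4 in the controls and was not tested. Its scaled ratio of 2.34 has a 95% exact counting interval of 0.674 to 10.2, which covers counting error only.

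Among the desaturases the delta-9 and the delta-5 enzymes moved in opposite directions. SCD, the stearoyl-CoA desaturase that makes oleate and palmitoleate, was the most abundant member in the controls, per kilobase of exon as well, at 936 and 946 scaled CPM. The Bromo+/- libraries had 414 and 414, a fall of 2.27-fold (log2 fold change -1.19, SE 0.05, 95% interval -1.29 to -1.08, adjusted p = 1.5e-62). Its paralogue SCD5 was far less abundant, at 10.6 and 10.7 against 13.9 and 14.3 scaled CPM (log2 fold change -0.41, SE 0.14, adjusted p = 0.00774). SCD5 lost its call in DESeq2's Wald test (adjusted p = 0.121) and when control replicate 2 was left out (adjusted p = 0.0589, edgeR). FADS1, the delta-5 desaturase of polyunsaturated fatty acids, rose to 126 and 127 from 84.3 and 91.1 scaled CPM (log2 fold change 0.53, SE 0.06, adjusted p = 7.85e-14). FADS3, a related family member, rose to 84.1 and 74.8 from 50.1 and 50.8 (log2 fold change 0.66, SE 0.07, adjusted p = 1.08e-15). FADS2, the delta-6 desaturase, did not pass, with 24.1 and 24.1 against 22.1 and 23.6 scaled CPM and a 95% interval of -0.13 to 0.28 on the log2 scale.

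The FADS genes lie next to each other on chromosome 11 (FADS2 61792980 to 61867354, FADS1 61799625 to 61829318, FADS3 61873519 to 61892051, GRCh38), which allows their fold changes to be read in order. Of the tested genes there, TMEM258 (log2 fold change -0.07) and FEN1 (-0.04) did not pass, FADS2 did not pass, FADS1 and FADS3 rose, and RAB3IL1 on the far side was lower (-0.44, adjusted p = 0.0466, edgeR). These 3 neighbours were chosen after their values were seen. The annotated exons of FADS1 and FADS2 share 490 bases on opposite strands, 4.79% of FADS1 and 4.44% of FADS2, and the strand setting of the counting is not given in the sources used here. The rise was called in FADS1 and FADS3 and not in FADS2, whose span contains FADS1.

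Of the 5 tested elongases 4 fell and 1 rose. ELOVL7, which acts on long-chain saturated substrates, had the largest fall among the 33 tested genes, to 5.13 and 5.58 from 20.1 and 18.9 scaled CPM (3.64-fold lower, log2 fold change -1.86, SE 0.16, adjusted p = 3.33e-27; chromosome 5, 60751791 to 60844389). ELOVL4, the elongase of very long chains known from skin and retina, fell to 9.86 and 11.2 from 27.6 and 25.2 (log2 fold change -1.32, SE 0.12). These 2 were minor members in both groups. The abundant elongases changed less. ELOVL1, which makes saturated very long chains, fell to 131 and 126 from 212 and 197 scaled CPM (log2 fold change -0.67, SE 0.06). ELOVL6, which lengthens palmitate to stearate, fell to 92.7 and 96.0 from 138 and 147 (log2 fold change -0.60, SE 0.06). ELOVL5, the elongase of polyunsaturated chains, was the exception and rose to 186 and 189 from 161 and 164 (log2 fold change 0.21, SE 0.06, adjusted p = 0.000665). ELOVL2 (1 count in each group) and ELOVL3 (9 against 7 counts) were not tested, and no difference was detectable at this depth.

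In all, the make-up of the elongase family was different in the 2 groups. Per kilobase of exon, ELOVL1 held 44.2% and 42.5% of the family's scaled counts in the Bromo+/- libraries and 53.1% and 50.9% in the controls. ELOVL5 held 41.3% and 41.9% against 26.5% and 27.8%. ELOVL7 held 0.947% and 1.03% against 2.76% and 2.68%. These shares depend on each other, so a rise in the share of ELOVL5 includes the fall of the others.

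**Figure D2:**
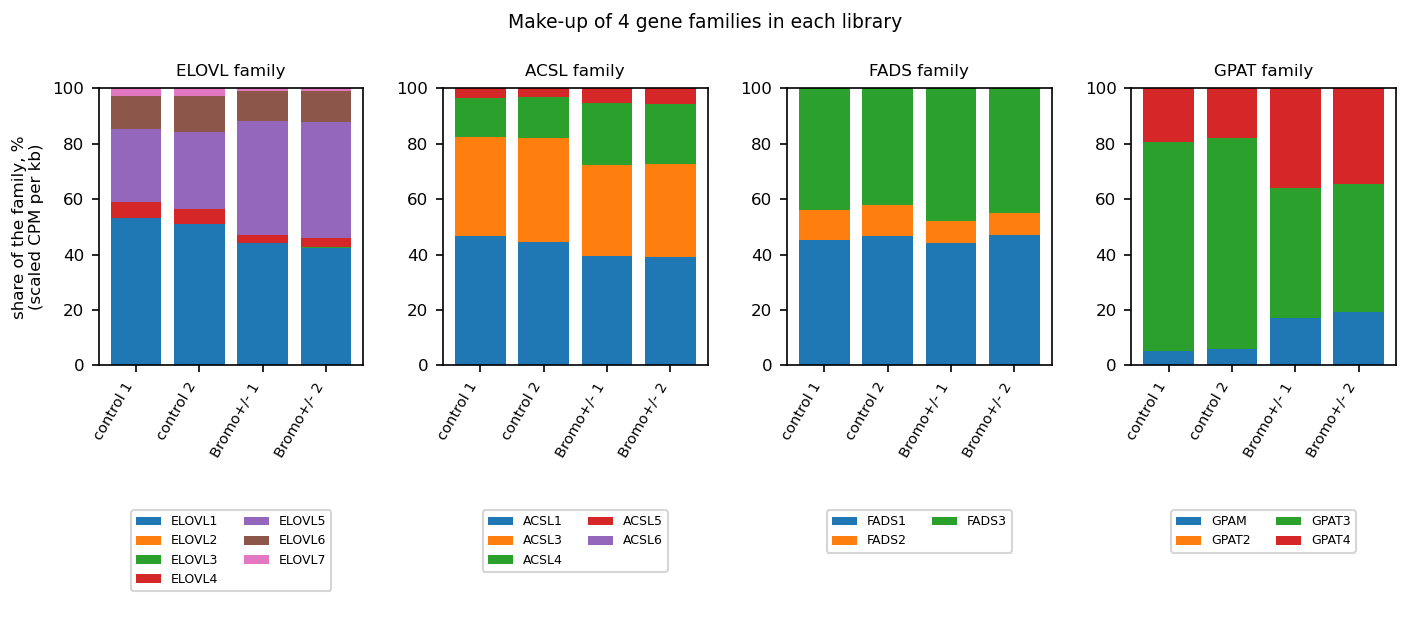
Share of each member in its family's scaled CPM per kilobase (y axis, percent) in each of the 4 libraries (x axis), for the elongases, acyl-CoA synthetases, FADS desaturases and glycerol-3-phosphate acyltransferases. Replicates within a group are alike, ELOVL5 and ACSL4 take larger shares in the Bromo+/- libraries, and GPAT3 takes a smaller one.

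The long-chain acyl-CoA synthetases split by isoform. ACSL1, the isoform known for feeding both storage and oxidation, fell to 244 and 252 from 437 and 426 scaled CPM (log2 fold change -0.80, SE 0.05, adjusted p = 1.22e-36). ACSL3, the isoform of nascent lipid droplets, fell to 235 and 249 from 385 and 410 (log2 fold change -0.72, SE 0.05, adjusted p = 7.29e-31). ACSL4, which prefers arachidonate and other polyunsaturated substrates, did not pass, at 141 and 144 against 133 and 142 scaled CPM, with a 95% interval of -0.07 to 0.17. ACSL5 did not pass either (22.9 and 24.2 against 22.9 and 21.4, interval -0.12 to 0.30), and for both the groups overlapped. Per kilobase, ACSL4 thereby held 22.3% and 21.9% of the 5 ACSL genes in the Bromo+/- libraries and 13.95% and 14.6% in the controls.

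Uptake and binding genes were nearly silent. CD36, the fatty acid translocase, had 18 and 12 counts in the Bromo+/- libraries and 5 and 1 in the controls. It was called higher (log2 fold change 2.18, SE 0.65, adjusted p = 0.000336), but not in DESeq2's Wald test (adjusted p = 0.0584) nor when control replicate 2 was left out (log2 fold change 1.39, adjusted p = 0.1055, edgeR). FABP4, the adipocyte and macrophage fatty acid binding protein, had 6 and 7 counts against 1 and 0 and was not tested, with a scaled ratio of 12.2 and a 95% exact counting interval of 1.83 to 517. FABP5, the epidermal binding protein, had 9 to 11 counts in every library and did not pass. Its count is uncertain, since 15 pseudogenes named for FABP5 stand in the table, and how multi-mapping reads were counted is not stated. Together these pseudogenes held 7 counts. CD36 and FABP4 are also expressed by adipocytes, macrophages and endothelium. Of 10 adipocyte markers 3 had no count in any library, ADIPOQ, LEP and RETN, and the list's sum was 13.3 and 13.6 against 25.0 and 25.2 scaled CPM, most of it from LIPE. Of 8 macrophage markers 4 had no count, among them CD163 and MRC1, and the sum was 1.39 and 1.51 against 10.8 and 11.8, from CSF1R and MARCO. Of 6 endothelial markers 3 had no count, VWF, ERG and TIE1, and the sum was 2.39 and 2.53 against 2.59 and 3.82. Single markers with few counts went the other way: TEK had 5 and 6 counts against 1 and 1, CIDEC 7 and 5 against 3 and 2, and CD68 1 and 1 against 0 and 0. Of the exon bases of CD68 85.8% are shared with other genes, so its counts are uncertain. The part of such cells in the counts of CD36 and FABP4 was not tested.

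Genes of glycerolipid storage and release showed 1 large change. GPAM, the mitochondrial glycerol-3-phosphate acyltransferase that starts triglyceride synthesis, rose to 52.4 and 60.4 from 26.2 and 28.97 scaled CPM (2.04-fold, log2 fold change 1.03, SE 0.09, adjusted p = 1.67e-25; chromosome 10, 112149864 to 112215377). LPIN1, the phosphatidate phosphatase of the next steps, did not pass (139 and 135 against 135 and 150.02, interval -0.18 to 0.06). DGAT1 and DGAT2, which add the last acyl chain, did not pass either, at 18.8 and 17.1 against 21.1 and 20.5 and at 7.42 and 7.44 against 8.31 and 7.70 scaled CPM. PLIN3, a droplet coat protein, fell to 179 and 166 from 206 and 211 (log2 fold change -0.27, SE 0.06, adjusted p = 1.1e-05). PLIN2, the coat protein of most non-adipose droplets, had 4 to 11 counts per library and was not tested. PNPLA2, the triglyceride lipase, rose to 44.1 and 37.9 from 35.3 and 33.3 (log2 fold change 0.26, SE 0.09, adjusted p = 0.00643). PNPLA2 lost its call in DESeq2's Wald test (adjusted p = 0.124), without Bromo+/- replicate 1 (adjusted p = 0.229, edgeR) and without control replicate 2 (adjusted p = 0.131, edgeR).

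The GPAT enzymes of the endoplasmic reticulum, GPAT3 and GPAT4, moved in opposite directions. GPAT3, from the list of other glycerolipid genes, fell to 50.9 and 51.4 from 133 and 134 scaled CPM (log2 fold change -1.38, SE 0.07, adjusted p = 7.15e-53). GPAT4, from the same list, rose to 89.98 and 88.2 from 78.7 and 72.0 (log2 fold change 0.24, SE 0.07, adjusted p = 0.00128). How this small rise held under the alternatives was not looked at. Per kilobase, GPAM held 17.05% and 19.2% of the GPAT family in the Bromo+/- libraries and 5.25% and 5.84% in the controls, while GPAT3 held 46.8% and 46.2% against 75.25% and 76.2%, and GPAT4 36.2% and 34.6% against 19.5% and 17.95%. This family was chosen after its values were seen. GPAT2 had no count in any library.

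Among the 5 oxidation genes of the set 2 rose, 1 fell and 2 did not pass. CPT2, the inner-membrane carnitine palmitoyltransferase, rose to 27.4 and 27.0 from 19.3 and 19.7 scaled CPM (log2 fold change 0.48, SE 0.10, adjusted p = 2.43e-05). CPT1A, the outer-membrane enzyme that sets the rate of entry, rose slightly, to 309 and 318 from 286 and 270.1 (log2 fold change 0.17, SE 0.05, adjusted p = 0.00288), and without control replicate 2 it did not pass (adjusted p = 0.204, edgeR). ACADVL, the very long-chain acyl-CoA dehydrogenase of the first step, fell to 381 and 345 from 556 and 542 scaled CPM (log2 fold change -0.60, SE 0.05, adjusted p = 5.38e-24; chromosome 17, 7217125 to 7225273). ACADM, its medium-chain counterpart, stood at 65.4 and 63.3 against 56.4 and 59.0 and did not pass (adjusted p = 0.0638), though it did under 4 of the 11 alternatives, with adjusted p from 0.00367 to 0.0498. HADHA, a subunit of the trifunctional protein, stood at 371 and 374 against 369 and 356 (interval -0.06 to 0.14), and passed only when library sizes alone were used for scaling (adjusted p = 0.0322, edgeR).

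Of the 2 nuclear receptors PPARG, the receptor known for adipogenesis, fell to 28.2 and 31.2 from 43.2 and 43.3 scaled CPM (log2 fold change -0.54, SE 0.09, adjusted p = 1.02e-08). PPARA, the receptor known for fatty acid oxidation in liver, did not pass (17.7 and 19.0 against 20.2 and 19.9, interval -0.35 to 0.10). PPARD, the third member of the family and not in the set, fell to 35.3 and 35.5 from 143.3 and 142.8 (4.04-fold lower, log2 fold change -2.01, SE 0.07, adjusted p = 1.98e-77). Its partner RXRA was at 159 and 154 against 139 and 130 (log2 fold change 0.22, SE 0.06, adjusted p = 0.000677), a call that ended without control replicate 2 (adjusted p = 0.102, edgeR). PDK4, a pyruvate dehydrogenase kinase and known PPAR target, rose (log2 fold change 0.84, SE 0.08), and ESRRA, an orphan receptor of mitochondrial genes, fell (-0.50, SE 0.08). In that list of 10 tested partners and coactivators 3 rose and 4 fell.

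**Figure D3:**
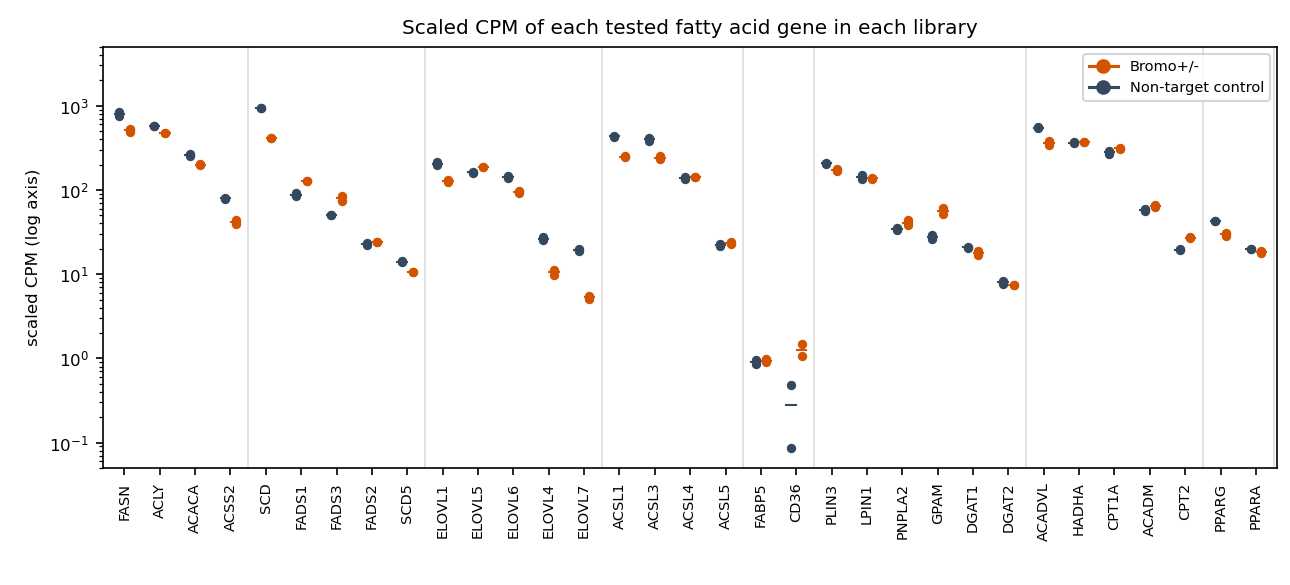
Scaled CPM (y axis, log scale) of each tested gene in each library (points) with the group mean (bar), ordered by role along the x axis. SCD and FASN are highest in the controls, and CD36 and FABP5 are lowest, CD36 between 0.0865 and 1.47.

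Libraries of the groups did not overlap for 29 of the 33 tested genes, which is read against 75.2% of all tested genes. The plot of levels by library shows the 4 that overlapped, ACSL4, ACSL5, FABP5 and LPIN1, none of which passed. FADS2, ACADM, HADHA, DGAT1, DGAT2 and PPARA did not overlap and did not pass either.

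The other genes of the pathways were taken from lists by role. Their calls are read against 27.1% lower and 26.4% higher over all tested genes. The SREBP genes and their INSIG anchors fell. SREBF1, which encodes SREBP-1, fell to 109 and 98.3 from 137 and 142 scaled CPM (log2 fold change -0.43, SE 0.06), and SREBF2 fell to 189 and 186 from 248 and 266 (-0.46, SE 0.05). INSIG1 (-1.07, SE 0.07) and INSIG2 (-1.04, SE 0.12), which hold the SREBP complex in the endoplasmic reticulum, fell about as much as SCD. MBTPS1, the site-1 protease that cuts SREBP, rose (0.56, SE 0.06). Of 13 tested regulators 5 fell and 4 rose. Of 10 tested genes of citrate, NADPH and acetyl-CoA supply 5 rose, among them ACO1, the cytosolic aconitase (0.45, SE 0.06), and 1 fell, IDH1 (-0.55, SE 0.06).

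Transport and accessory activation genes fell more often than they rose, with 8 lower and 1 higher of 11 tested. The shares over all tested genes were 27.1% lower and 26.4% higher. Among those that fell were DBI, the acyl-CoA binding protein (log2 fold change -0.61, SE 0.05), and ACSF2, a medium-chain synthetase (-1.60, SE 0.15). The list of other elongation cycle genes, which also holds the cytochrome b5 and reductase genes CYB5A, CYB5B and CYB5R3, split 3 and 3 of 8. Of its dehydratases HACD2 was lower (-0.54, SE 0.06), and HACD1 (0.59, SE 0.12) and HACD3 (0.18, SE 0.06) were higher. CYB5A, the electron donor of desaturases (-0.85, SE 0.09), and CYB5B (-0.29, SE 0.06) were lower, and CYB5R3 was higher (0.13, SE 0.05). Other glycerolipid and droplet genes split 8 higher and 6 lower of 15. Besides GPAT3, the lipases MGLL (-1.09, SE 0.06) and LIPE (-1.13, SE 0.13) fell. Of 7 genes of mitochondrial fatty acid synthesis 3 fell, with NDUFAB1 at -0.30 (SE 0.07) and MCAT at -0.30 (SE 0.10), and ACSF3 rose (0.31, SE 0.10). MCAT and ACSF3 lost their calls in DESeq2's Wald test (adjusted p = 0.1 and 0.0955), for MCAT also without Bromo+/- replicate 2 (adjusted p = 0.164, edgeR) and for ACSF3 without control replicate 2 (adjusted p = 0.08895, edgeR).

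None of the oxidation genes outside the set was called lower, where 27.1% of all tested genes were lower and 26.4% higher. The lists were not tested as sets. Of 15 tested other genes of mitochondrial beta-oxidation 9 rose and 6 did not pass, with a median log2 fold change of 0.31. They included ACADSB, a short branched-chain dehydrogenase (1.37, SE 0.12), ECHS1, the enoyl-CoA hydratase (0.43, SE 0.06), and ECI2, an enoyl-CoA isomerase (0.50, SE 0.08). Of the exon bases of ECI2 29.8% are shared with other genes. Of 15 tested peroxisomal genes 10 rose and 5 did not pass (median 0.38), among them PHYH, the phytanoyl-CoA hydroxylase (0.95, SE 0.14), CROT, the carnitine octanoyltransferase (0.85, SE 0.14), and ACOX2, an acyl-CoA oxidase (0.64, SE 0.15). The peroxisomal count dropped to 6 without control replicate 2 and lay between 6 and 11 over all alternatives, and the mitochondrial count lay between 8 and 10. A single mitochondrial gene was called lower with the replicate block and without Bromo+/- replicate 1. ACADVL, the fall in the set, thus differed in direction from the genes called in the 2 longer lists with all libraries in the main fit.

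**Figure D4:**
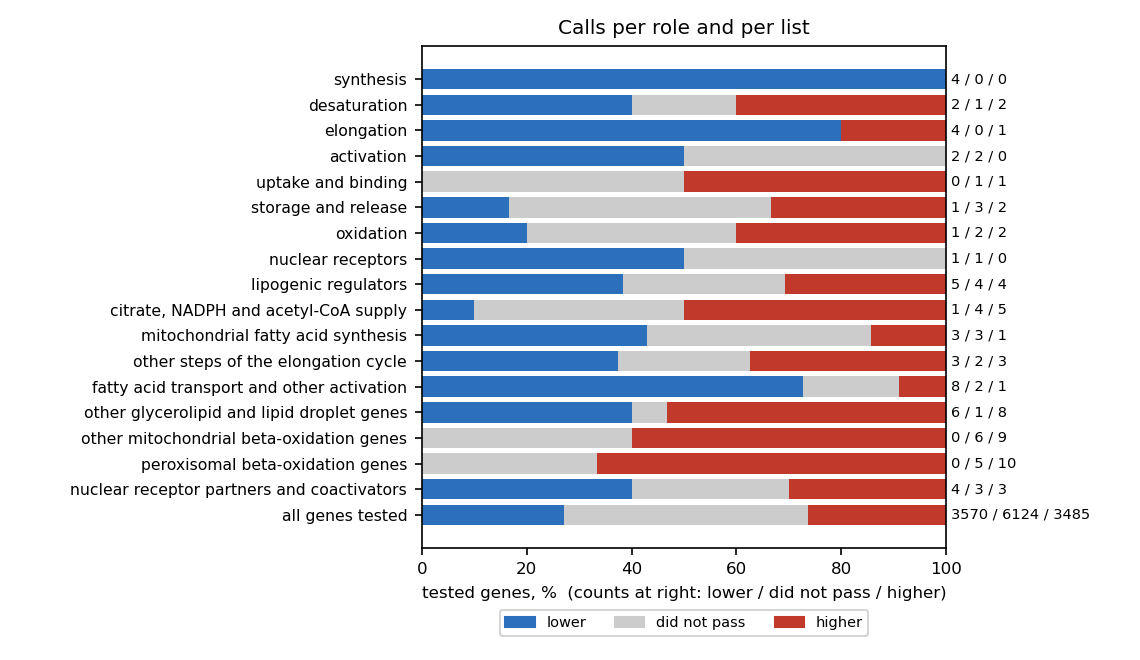
Share of tested genes called lower, not passing and called higher (x axis, percent) for each role of the set, each other pathway list and all tested genes (y axis). Counts at the right give lower, did not pass and higher, and the 2 lists of other oxidation genes have 0 lower of 15 each.

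Promoter sequence of the set was also looked at, as a description without a test. RefSeq windows on GRCh38.p14, from 250 bases before to 50 bases after a start, were found for 33 of the 38 genes, 58 windows in all, some of them overlapping, and not for FASN, DGAT1, DGAT2, FABP4 and FABP5. Both strands were searched for 5 motifs. The sterol regulatory element core, TCACCCCAC, was in 2 of 58 windows (3.45%), of ACSL1, which fell, and PNPLA2, which rose, and in 0.43% of all 35116 windows. CCAAT, bound by NF-Y, was in 21 windows (36.2%, against 34.6% of all) and GGGCGG, the GC box, in 34 (58.6%, against 45.0%). CACGTG, the E-box, was in 3 (5.17%, against 7.26%), and AGGTCA, a nuclear receptor half-site, in 7 (12.1%, against 13.8%). A match is a description of letters, and factor binding was not measured.

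The 250 bases before the start are shown for SCD (chr10:100346983-100347232, plus strand), the most abundant member in the controls, for the ACSL1 window with the sterol element core (chr4:184805554-184805803, minus strand), and for FADS1 (chr11:61817004-61817253, minus strand) and GPAM (chr10:112183766-112184015, minus strand), which rose. Each is written 5′ to 3′ on the gene's strand, with capitals for matches of the 5 motifs on either strand, none of which overlap here.
SCD: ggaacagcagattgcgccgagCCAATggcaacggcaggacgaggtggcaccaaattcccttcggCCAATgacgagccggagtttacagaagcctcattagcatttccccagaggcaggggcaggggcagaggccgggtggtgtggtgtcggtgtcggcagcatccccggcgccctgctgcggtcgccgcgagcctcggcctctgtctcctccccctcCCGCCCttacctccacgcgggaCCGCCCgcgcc
ACSL1: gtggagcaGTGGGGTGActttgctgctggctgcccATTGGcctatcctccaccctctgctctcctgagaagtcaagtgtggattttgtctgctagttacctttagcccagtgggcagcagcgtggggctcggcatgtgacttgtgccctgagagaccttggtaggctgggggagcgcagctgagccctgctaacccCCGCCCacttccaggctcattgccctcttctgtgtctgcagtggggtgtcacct
FADS1: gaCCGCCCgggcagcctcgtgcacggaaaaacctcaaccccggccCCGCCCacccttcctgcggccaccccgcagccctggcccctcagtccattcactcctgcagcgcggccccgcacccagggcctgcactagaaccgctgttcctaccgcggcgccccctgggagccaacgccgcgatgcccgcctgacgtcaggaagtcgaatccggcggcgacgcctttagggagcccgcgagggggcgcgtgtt
GPAM: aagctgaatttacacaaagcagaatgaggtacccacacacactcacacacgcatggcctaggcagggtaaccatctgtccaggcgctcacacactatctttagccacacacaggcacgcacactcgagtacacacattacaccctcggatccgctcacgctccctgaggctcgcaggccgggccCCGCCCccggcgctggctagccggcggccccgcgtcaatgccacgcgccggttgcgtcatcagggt
SCD has 2 CCAAT matches, starting 229 and 186 bases before the start, and 2 GC boxes on the other strand. The ACSL1 window, 1 of 5 for that gene, has the sterol element core on the other strand 242 bases before the start, then a CCAAT and a GC box. In the stretches shown, FADS1 has 2 GC boxes and GPAM 1, and neither has another of the motifs.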

How the data were processed

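RNA-seq of 4 libraries gave 1 table of raw counts for Ensembl genes, deposited with exon coordinates on GRCh38. STAR and featureCounts 1.5.2 are named in the submitters' processing notes. Annotation release, strand setting and the counting of multi-mapping reads: not given in the sources used here. Columns were matched to samples by name, Br to Bromo+/- and WT to the non-target control, with the replicate number after the hyphen. Symbols came from a table of current names (57392 of 58233 genes) and GENCODE v29 (503).

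The analysis used edgeR 4.0.16 (R 4.3.3) with filterByExpr, which left 13179 genes, TMM scaling and robust quasi-likelihood tests (2 residual degrees of freedom per gene). Adjusted p-values are Benjamini-Hochberg over those 13179. SE and 95% intervals come from the fitted model. Per-kilobase levels use the table's exon lengths. Alternatives were 3 other scalings, no filter, a filter of at least 1 CPM in 2 libraries, DESeq2 1.42.0, the replicate number as block, and leaving out each library. The procedure was tested on simulated data in which far fewer genes changed than the 53.5% called here. Scaling under so broad a change was therefore not checked by it. Replicates differed by more than sampling noise (chi-square of 2.44 and 1.56 per degree of freedom), so none was counted as a copy. Counts of 3 correspond to 0.2445 to 0.2865 CPM per library.

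The set and all lists were chosen with earlier results of these data known. All 38 genes are accounted for. From each other list up to 3 genes past the threshold with average log2 CPM of at least 2 and the smallest adjusted p are named, besides EP300, SREBF1, SREBF2, INSIG1, PPARD and RXRA. Other names were chosen after their values were seen. Not every gene that the rule names is reported here.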

Additional observations from a re-analysis of the deposited data

How the results depend on the processing

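Of the 23 fatty acid genes called, 19 kept their call and direction under all 11 alternatives, and the 4 that did not are SCD5, CD36, PNPLA2 and CPT1A, whose values stand beside their results. Of the 10 that did not pass, ACADM and HADHA passed under at least 1 alternative. The count of lower genes was 14 to 15 throughout. The count of higher genes was 6 to 10 with all libraries, and leaving out a library gave 5 to 9, the 5 without control replicate 2. In that setting the lone control is assumed to vary like the other group, and the cause was not tested. Among all tested genes 3485 were higher and 3570 lower, and with library sizes alone 4433 and 2794, a scaling that moves the median of all log2 fold changes from 0.01 to 0.09. The DESeq2 Wald test called 2292 higher. The median log2 fold change of the 33 genes, -0.13, lay between -0.19 and -0.04, the latter with library sizes alone. Other glycerolipid genes called higher were 5 rather than 8 without either control library. Higher nuclear receptor partners were 5 rather than 3 with upper quartile scaling or library sizes alone, and higher elongation cycle genes 1 rather than 3 without control replicate 1. Lower genes of mitochondrial fatty acid synthesis were 1 rather than 3 in DESeq2's Wald test and without Bromo+/- replicate 2. With the replicate number as a block 9 of the fatty acid genes were higher and 15 lower, ACADM being added (adjusted p = 0.0424, edgeR). Same-numbered libraries correlated at 0.05 in their deviations across genes. Across so few libraries this cannot settle whether the numbers pair the samples. The uptake genes stood at 1.47 scaled CPM or less in every library. With 2 libraries per group, depth limits what can be said of CD36, FABP4, FABP5, PLIN2 and ACACB. For FABP5 the unstated counting of multi-mapping reads is a further limit.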

Other observations

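Chromosome neighbours of the fatty acid genes were read after the values were seen. OLMALINC, a long non-coding RNA gene that starts 8780 bases beyond the end of SCD on the same strand (chromosome 10, 100373615 to 100383368, GRCh38), stood at 2.04 and 2.75 scaled CPM in the Bromo+/- libraries and at 5.25 and 6.23 in the controls. OLMALINC thus fell (log2 fold change -1.27, SE 0.24, edgeR's adjusted p = 6.24e-07), beside -1.19 for SCD. On the other side of SCD, BLOC1S2 did not pass (0.14). As a background for such neighbours, 53.5% of the 13179 genes in the fit carried a call, 26.4% higher and 27.1% lower. The 23 called members have 46 nearest tested genes, counting both sides. Of these neighbours 17 were called in the member's direction, 11 in the opposite one and 18 did not pass. Some genes count more than once or are members themselves, and the split by direction was not tested against the background. Among those in the same direction was SH3BGRL2 (-2.23), 211152 bases from ELOVL4. Among the opposite ones, GGT7, whose span overlaps ACSS2, rose by 2.34 on the log2 scale where ACSS2 fell, and DLG4, which shares 49 exon bases with ACADVL on the opposite strand, rose by 1.46 where ACADVL fell.

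The PPAR family, also looked at after its values were seen, had a different make-up in the groups. Per kilobase PPARD held 48.8% and 46.6% of the family in the Bromo+/- libraries and 72.5% and 72.4% in the controls, and PPARG 43.0% and 45.0% against 24.1% and 24.2%, although the level of PPARG itself fell.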
